A study of Homo sapiens with 6 samples.

Results

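The nucleosome remodelling and deacetylase complex (NuRD) was followed through 10 subunit genes in U2OS clones that lack or keep MBTD1. The members were taken by gene symbol, MTA1, MTA2, MTA3, CHD3, CHD4, HDAC1, HDAC2, MBD2, MBD3 and GATAD2A, and each matched 1 row among the 34602 gene rows measured. The complex was chosen by the knockout minus control difference of MTA2 in these same clones, so the members' differences, and whether limma called them, are given as a description from which nothing is inferred. U2OS is a human osteosarcoma cell line. Illumina bead arrays, 1 for each clone, measured the total RNA of 3 control clones and of 3 clones with MBTD1 inactivated by CRISPR/Cas9, all of them untreated and kept in DMEM with serum. The sample titles call the controls "control KO" and the design text calls them wild type, and their derivation is not described in the sources used here. They are numbered as clones, but whether they are independent clones or repeats of 1 clone is not stated, so n = 3 counts arrays. Separate culture or processing days are not recorded either, so a p-value reflects only the scatter of these 6 arrays, and their number limits the precision. In bulk RNA, fewer cells expressing a gene and less RNA per cell cannot be told apart.

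NuRD joins 2 enzymatic activities that act on chromatin. CHD3 and CHD4 are ATPases that move nucleosomes, and HDAC1 and HDAC2 remove acetyl groups from histone tails. The MTA proteins are the scaffold that holds and activates the deacetylases, MBD2 or MBD3 links this module to the rest, and GATAD2A bridges it to the remodeller. MBD2 binds methylated CpG sites. The complex is known mainly as a repressor of transcription. MBTD1, the gene inactivated here, belongs to the TIP60/NuA4 complex, which adds acetyl groups to histones.

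At a detection p under 0.05, each array had 12982 to 13511 genes above background, and the 13145 genes that met this on at least 3 arrays were tested. MBTD1 itself did not separate the groups. Its log2 level was 5.06 ± 0.01 (SD, n = 3) in controls and 4.93 ± 0.28 (n = 3) in knockout clones (exact permutation p = 0.7, 2-sided, smallest possible 0.1); the position of its probes relative to the edit is unknown here, so the level does not check the labels. Differences of 2-fold or more separated control 1 from control 2 in 150 genes, and each of them from control 3 in 8 and 5, while pairs of knockout clones differed so in 163 to 254. Control 1 differed from knockout 1 in 136 genes, fewer than from control 2, and control 2 differed from the knockout clones in 664 to 765. Of 10 osteoblast and mesenchymal markers 5 were above background on all 6 arrays, among them VIM, SPARC and COL1A1, while COL1A2 was above it on 0 and RUNX2 and SP7 on 1 array each. Of the 7 tested, 5 were lower and 2 higher in knockout clones and limma called 0. In limma 2 had an unadjusted p under 0.05, against 20.4% of all tested genes. These were SPP1 (osteopontin), at -1.22 (limma adjusted p = 0.0521), and VIM (vimentin), at -0.71 (limma adjusted p = 0.0564), both without overlap between the groups. With IBSP, at -0.2, the groups did not overlap in 3 of the 7 markers, against 25.9% of all tested genes. The part of these markers in the members' differences was not tested. The summed intensity of all 10 markers overlapped, at 4420 to 5275 in controls and 4127 to 4567 in knockout clones. These sums were taken before background correction and normalization, so they cannot be set against the log2 differences of single markers. Among 6 blood and endothelial markers 5 were above background on 0 arrays. Of 4 epithelial markers EPCAM was above it on all 6 arrays, KRT14 on 2, and CDH1 and KRT5 on 0.

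Of the 3 scaffold genes, MTA2 and MTA1 measured higher in knockout clones and MTA3 lower. MTA2 gave bead intensities of 115.2, 123.2 and 117.3 in controls 1 to 3 and of 189.9, 178.9 and 170.6 in knockout clones 1 to 3. Every knockout clone lay above every control. The standard errors between beads were 1.93 to 6.70 intensity units over 12 to 20 beads per array, and cover technical error within an array only. After background correction with an offset of 16 and quantile normalization, the log2 level of MTA2 was 5.70, 5.69 and 5.75 in controls and 6.91, 6.77 and 6.69 in knockout clones. The difference was 1.08 (standard error 0.11), or 2.11-fold. The 3 control values spanned 0.05, and 3.49% of tested genes had controls at least as close together. The 3 knockout values spanned 0.23, and 4498 of the 13145 tested genes had knockout values at least as close together. Spread within groups is part of the contrast by which MTA2 was chosen, so nothing is read from it. Control 1 and control 2 differed by 0.01 for MTA2. MTA2 ranked number 98 by size among the 158 genes that limma called higher at an adjusted p under 0.05, 1.20% of those tested.

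The size of the MTA2 difference depended on how the background was treated. The mean intensity was 119 ± 4.13 (SD, n = 3) in controls and 180 ± 9.68 (n = 3) in knockout clones, a ratio of 1.52. Above the fitted background, which lay between 81.7 and 84.2 on the 6 arrays, the same means were 36.5 and 96.2 units. In the authors' deposited log2 values, which carry no background subtraction, the difference was 0.57. When the background was fitted on every row, as limma does by default, it was 0.16, and without control 3 it was 1.09. MTA2 was not called in either setting, where limma called 0 genes and 2260 and 1919 genes had an unadjusted p under 0.05.

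MTA1 measured 120.8, 119.7 and 113.1 intensity units in controls and 133.5, 145.0 and 134.7 in knockout clones. The groups did not overlap here either, but the gap was narrow. On the log2 scale MTA1 was 5.86, 5.61 and 5.63 in controls and 6.05, 6.24 and 6.08 in knockout clones, which differ by 0.43 (standard error 0.12) without a call. The highest control, control 1, lay 0.19 below the lowest knockout clone. As for MTA2, the size followed the background treatment, at 0.05 with the default background fit, 0.20 in the authors' deposited log2 values and 0.27 with an offset of 50. MTA3 had log2 levels of 7.52, 7.89 and 7.62 in controls and 7.29, 7.33 and 7.55 in knockout clones, which gives -0.29 (standard error 0.14). Knockout 3 lay above control 1, so the groups overlapped, and control 1 lay 0.36 below control 2, more than the difference between the group means. The MTA3 difference was -0.18 without control 2 and -0.13 with the default background fit.

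**Figure D1:**
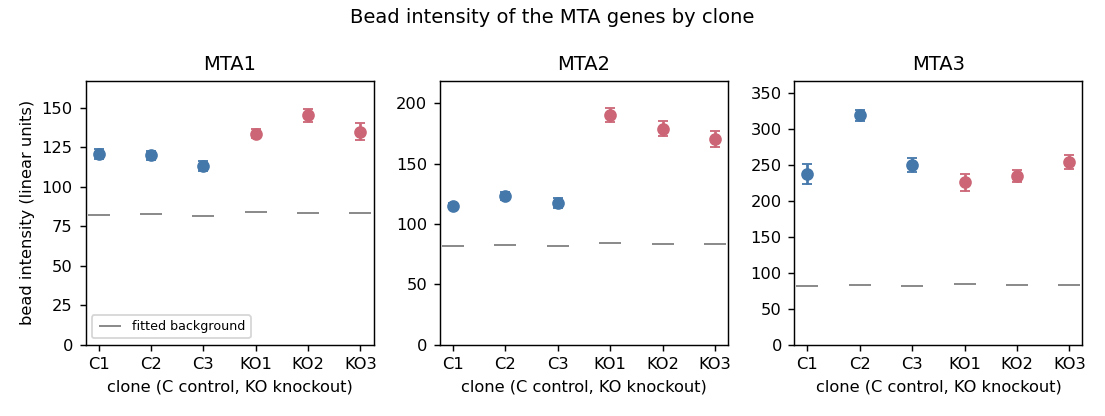
Bead intensity (linear units) of MTA1, MTA2 and MTA3 in each control (C) and knockout (KO) clone, as points with the standard error between beads; grey dashes mark the fitted background of each array. For MTA2 the controls lie between 115.2 and 123.2 and the knockout clones between 170.6 and 189.9, while the clones overlap for MTA3.

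The sequences before the annotated starts of the MTA genes are shown because MTA2 is the member with the widest separation and MTA1 and MTA3 are paralogs that take the same place in the complex. Each is the 250 bases upstream of the outermost RefSeq start of the gene, written 5′ to 3′ along the gene, with matches to the GC box GGGCGG or its reverse CCGCCC in capitals.
MTA2 (GRCh38.p14, chr11:62601866-62602115, minus strand): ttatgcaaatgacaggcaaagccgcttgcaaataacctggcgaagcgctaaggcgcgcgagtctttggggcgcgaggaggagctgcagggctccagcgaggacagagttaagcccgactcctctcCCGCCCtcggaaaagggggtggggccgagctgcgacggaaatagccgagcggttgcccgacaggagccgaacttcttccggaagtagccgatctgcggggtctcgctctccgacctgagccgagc
MTA1 (GRCh38.p14, chr14:105419577-105419826, plus strand): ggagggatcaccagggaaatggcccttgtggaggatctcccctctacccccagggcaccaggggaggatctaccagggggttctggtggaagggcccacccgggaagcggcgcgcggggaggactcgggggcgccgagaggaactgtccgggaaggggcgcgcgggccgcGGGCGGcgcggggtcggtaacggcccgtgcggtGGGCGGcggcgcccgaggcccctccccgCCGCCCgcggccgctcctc
MTA3 (GRCh38.p14, chr2:42493860-42494109, plus strand): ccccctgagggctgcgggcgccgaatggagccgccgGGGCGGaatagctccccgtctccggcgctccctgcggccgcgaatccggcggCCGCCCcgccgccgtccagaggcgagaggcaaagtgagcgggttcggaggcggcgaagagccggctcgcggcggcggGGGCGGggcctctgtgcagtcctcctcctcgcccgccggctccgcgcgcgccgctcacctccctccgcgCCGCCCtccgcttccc
The GC box occurred 1 time before MTA2, 3 times before MTA1 and 4 times before MTA3, and 42.6% of all 35116 RefSeq windows of this length held at least 1. The windows held 25, 30 and 41 CpG dinucleotides, against a median of 11 over all windows. None of the 3 held CCAAT on either strand, a motif found in 32.0% of all windows. The same was true of the TATA box TATAAA, present in 10.7%, and of the E-box CACGTG, present in 6.34%. These matches describe the letters of the windows, and binding to them was not measured.

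Both deacetylase genes measured lower in knockout clones, with separation only for HDAC1. HDAC1 had log2 levels of 10.13, 10.27 and 10.21 in controls and 9.92, 9.71 and 9.98 in knockout clones. All knockout clones lay below all controls, by a gap of 0.15, and the means differed by -0.34 (standard error 0.12). The size depended on the scaling and on the background fit. It was -0.21 with cyclic loess normalization, -0.07 when arrays were scaled to a common median and -0.48 with the default background fit. Before normalization the intensities overlapped, 1080 to 1193 in controls and 961.6 to 1153 in knockout clones. HDAC2 measured 8.07, 8.57 and 8.35 in controls and 8.27, 7.92 and 7.79 in knockout clones, again -0.34 apart (standard error 0.17). Knockout 1 lay among the controls, and control 1 was 0.50 below control 2. The HDAC2 row averages several probes, as its fractional bead numbers show, and its detection p reached 0.00777 at an intensity of 289.9 in knockout 3, while the rows of HDAC1 and MTA2 had a detection p of 0 on all arrays.

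CHD4, the ATPase most often found in the complex, differed by less than the spread between controls. Its log2 levels were 9.13, 9.29 and 9.24 in controls and 9.15, 9.19 and 9.21 in knockout clones. The knockout clones lay within the range of the controls, with a difference of -0.03 (standard error 0.11). The sign followed the scaling, at 0.08 with cyclic loess and 0.17 with a common median, and before normalization the knockout clones read 692.1 to 694.3 against 593.4 to 676.3 in controls. CHD3, its paralog, was not tested. Its intensities, 83.1 to 89.9 over the 6 arrays, were above background only in knockout 2. The rows of CHD3 and CHD4 have fractional bead numbers and so average several probes.

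Of the methyl-CpG binding family, MBD3 was measured and MBD2 was not above background. MBD3 had log2 levels of 5.71, 5.66 and 5.80 in controls and 5.58, 5.83 and 5.64 in knockout clones, with overlapping groups and a difference of -0.04 (standard error 0.12). Its mean lay 36.63 units above the fitted background in controls and 35.85 in knockout clones, against 36.47 for MTA2 in controls. MBD2 gave intensities of 84.6 to 87.7 and detection p-values of 0.164 to 0.318, so no difference was detectable. Its row averages several probes, with fractional bead numbers, and is described as a testis-specific transcript variant. GATAD2A, the bridging subunit, measured 8.35, 8.23 and 8.01 in controls and 8.11, 8.46 and 8.17 in knockout clones. The means differed by 0.05 (standard error 0.14), while the controls alone spanned 0.34.

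In all, 8 of the 10 members were tested, and 1, MTA2, was called over all genes, against 1.57% of all tested genes in either direction and 1.20% in the higher one. Since MTA2 drew the choice of the complex, nothing is read from that count. The groups did not overlap in 3 of the 8 (MTA1, MTA2 and HDAC1), against 25.9% of all tested genes. By sign, 3 differences were positive and 5 negative, with a median of -0.04, against -0.023 over all tested genes.

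**Figure D2:**
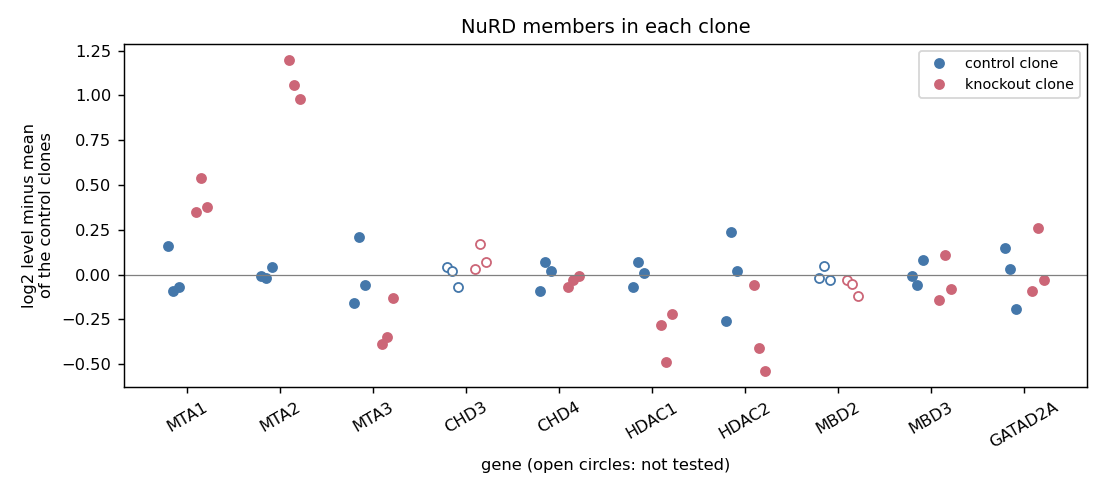
Log2 level of each member in each clone, minus the mean of the control clones; blue points are controls, red points knockout clones, and open circles genes that were not tested. MTA2 is the member with the widest gap between the groups, 0.94, while CHD4, MBD3 and GATAD2A overlap.

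Further subunits of the complex that were not among the members all measured lower in knockout clones, and 0 of 5 were called with limma. RBBP7 and RBBP4 are histone chaperones of the complex. RBBP7 measured 7.16, 7.48 and 7.13 in controls and 6.80, 6.98 and 6.85 in knockout clones, a difference of -0.38 (limma adjusted p = 0.154). RBBP4 measured 5.52, 5.79 and 5.53 against 5.26, 5.05 and 5.46, a difference of -0.36 (limma adjusted p = 0.203). In both genes every knockout clone lay below every control, by a gap of 0.16 for RBBP7 and 0.06 for RBBP4. The groups did not overlap in 25.9% of all tested genes. Without background correction the differences were -0.26 for RBBP7 and -0.14 for RBBP4. With the default background fit they were -0.11 and -0.03. CDK2AP1, a small subunit, differed by -0.35 (limma adjusted p = 0.156), GATAD2B, the paralog of GATAD2A, by -0.23, and CHD5, a remodeller paralog known mainly from neurons, by -0.21. The list's median was -0.35 against -0.023 over all tested genes, and 3 of 5 had an unadjusted p under 0.05, all lower, where 10.3% of tested genes were lower at that level. With arrays scaled to a common median 4 of 5 were negative, CDK2AP1 stood at 0.00, the list's median was -0.22 and 0 of 5 had an unadjusted p under 0.05. That count was 1 without control 2, without control 3 or without knockout 1, and 2 with cyclic loess, the replicate block, the default background fit or without knockout 2. With the default background fit the median was -0.03. Control 1 lay below control 2 by 0.32 for RBBP7, 0.27 for RBBP4 and 0.12 for CDK2AP1, in the direction of the knockout difference; the part of this spread in the result was not tested.

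Other complexes that use HDAC1, HDAC2 or HDAC3, proteins that recruit NuRD and relatives of its subunits gave 0 calls. Together with the further subunits and genes known to be repressed through NuRD, and counting genes of 2 lists once, 56 genes were tested. Their differences were negative in 36 and positive in 20, with a median of -0.09, where 53.8% of all tested genes were negative. The groups did not overlap in 18 of the 56, against 25.9% of all tested genes. In limma 12 had an unadjusted p under 0.05, against 20.4% of all tested genes. Of these 2 were higher and 10 lower, against 10.3% of all tested genes lower at that level, and with a common median the count in either direction was 6. The Sin3 complex, with 11 tested genes, had a median of -0.08. FAM60A, a Sin3 subunit now named SINHCAF, differed by -0.47 (standard error 0.25, limma adjusted p = 0.328), with overlapping groups. BRMS1, another Sin3 subunit, measured 9.11, 9.05 and 9.07 in controls and 8.85, 8.63 and 8.90 in knockout clones, a difference of -0.29 with no overlap (limma adjusted p = 0.209).

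Among 10 CoREST and MiDAC genes the median was -0.10. HMG20B, a subunit of the CoREST complex, had log2 levels of 8.80, 8.85 and 9.09 in controls and 8.02, 8.34 and 8.36 in knockout clones, a difference of -0.67 just outside the threshold (limma adjusted p = 0.0528). The groups did not overlap, and control 1 differed from control 2 by -0.05. HMG20B passed when a detection p under 0.01 was required on all 6 arrays (limma adjusted p = 0.0412) and without control 1 (0.0480). It passed in no other setting. The row named AOF2, for the lysine demethylase KDM1A that works in CoREST and also with NuRD, differed by -0.40 (limma adjusted p = 0.168), with control 1 lying 0.43 below control 2.

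The NCoR complex, built around HDAC3, had a median of 0.06 over 7 tested genes. TBL1XR1, an exchange factor of the complex, differed by -0.33 (limma adjusted p = 0.176).

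Of 7 tested genes that bind or recruit NuRD, the largest difference after AOF2 was that of ZFPM1, a cofactor of GATA proteins, at 0.23 (limma adjusted p = 0.377). Relatives of the subunits outside NuRD had a median of -0.06 over 16 tested genes. CHD1, a remodeller of transcribed genes, differed by -0.50 (limma adjusted p = 0.1115), and HDAC6, a cytoplasmic deacetylase that acts on tubulin, by 0.37 (limma adjusted p = 0.146). In both genes the groups did not overlap. Of 7 genes known to be repressed through NuRD or HDAC1, 5 (CDH1, SNAI1, ESR1, TFF1 and HBG1) were above background on 0 arrays. CDKN1A, which encodes the cell cycle inhibitor p21, measured 10.22, 10.49 and 10.33 in controls and 9.98, 9.32 and 10.06 in knockout clones, -0.56 apart (limma adjusted p = 0.157). HBG2, a fetal globin, was above background on 5 arrays and differed by 0.30 (limma adjusted p = 0.299). Its log2 levels were 4.47, 4.38 and 4.48 in controls and 4.59, 5.05 and 4.59 in knockout clones.

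**Figure D3:**
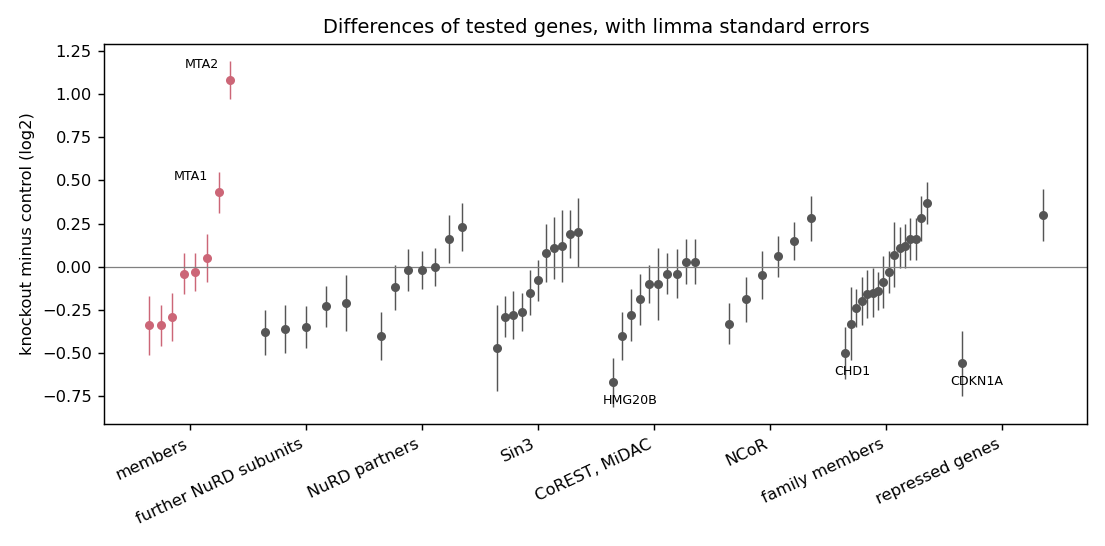
Knockout minus control difference (log2) of each tested gene with its limma standard error, for the 8 tested members (red) and the lists of related genes (grey). MTA2 lies at 1.08, and the related genes drawn run from HMG20B at -0.67 to HDAC6 at 0.37. The tested gene with the largest difference of the NCoR list, 0.56, is not drawn. MTA2 drew the choice of the complex by its difference in the same arrays, so nothing is read from its place above the lists.

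The genes whose profile over the 6 clones was most like that of MTA2 were found by the root mean square deviation between profiles after subtracting each gene's mean, among all tested genes. In order they were LOC643284, LOC642892, SRRM2, LOC647361 and RPPH1, with deviations of 0.117, 0.125, 0.133, 0.142 and 0.153 on the log2 scale and Pearson correlations over the 6 arrays of 0.959 to 0.995. The genes were picked by likeness to MTA2, and all 6 arrays share the split by genotype. The correlations and the separation of the groups follow from that choice, so nothing is read from them. LOC643284 and LOC647361 are described as similar to ribosomal protein S29, so near-identical copies can share their signal. SRRM2, a splicing factor of nuclear speckles, measured 8.12, 7.94 and 8.11 in controls and 8.94, 9.10 and 9.08 in knockout clones. RPPH1, the RNA component of ribonuclease P, measured 5.20, 4.85 and 4.94 in controls and 6.22, 5.76 and 5.98 in knockout clones.

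**Figure D4:**
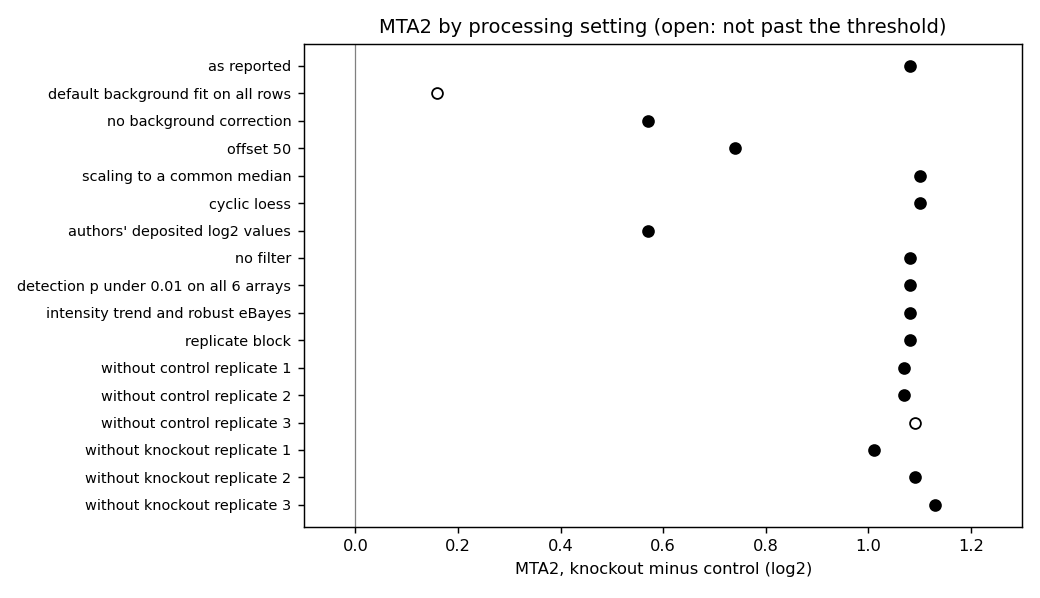
Knockout minus control difference of MTA2 (log2) under the reported processing and 16 alternatives; filled circles passed the threshold in limma and open circles did not. All 17 values are positive, from 0.16 with the default background fit to 1.13 without knockout 3. MTA2 drew the choice of the complex by this difference in the same arrays, so nothing is read from the shared sign.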

How the data were processed

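Per the file headers, the authors deposited linear bead intensities for each gene and array without background subtraction or normalization. Beside each stand its standard error between beads, the bead number and a deposited detection p-value against background beads. A second deposited table holds log2 values, which equalled quantile normalized log2 intensities to within 4.99e-09. The tools lumi and limma appear in the submitters' processing notes with no version; the summarising software, slides and build are unknown here. Of 34694 rows, 92 are spike-in controls and were left out of tests. The sample number in each column name gave its clone, and 0 columns of other samples were found.

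Values were made with limma 3.58.1 in R 4.3.3 (data.table, version 1.17.8). Normexp background correction took its background from detection p-values of 27408 rows (79.0%). On these rows they were whole multiples of 1/770 on all arrays, within 0.001 of a step. Other rows average several probes, and so do some of the 27408, CHD4 among them. The restriction to the 27408 rows follows earlier work on these data and was adopted after the default fit had called 0 genes. An offset of 16 was added before log2 and quantile normalization. Genes above background (detection p under 0.05) on at least 3 arrays were compared with lmFit and eBayes, 2-sided, without covariates, with Benjamini-Hochberg adjustment over all 13145 genes and a threshold of 0.05; the fit was tested on simulated data. MBTD1 also had an exact permutation test.

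The members and gene lists were chosen with earlier results of these data known. Named genes are MBTD1, the members, in each list the genes past the threshold and otherwise the 2 largest differences, and the 5 profiles nearest to MTA2; other names complete small lists, and 1 gene that the rule names is not reported here. All 82 genes of the lists of related complexes were found, 4 under older symbols through the RefSeq gene table. Promoter windows are from RefSeq (GRCh38.p14).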

Additional observations from a re-analysis of the deposited data

How the results depend on the processing

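The number of genes past the threshold, 207 (158 higher, 49 lower), was 0 with the default background fit, 64 without background correction and 64 with the authors' deposited log2 values, 61 with an offset of 50, 585 (553 higher, 32 lower) after scaling to a common median, 4 without a filter, 361 with a detection p under 0.01 on all 6 arrays, and between 0 (without control 3) and 578 (without control 1) when 1 clone was left out; it was 50, 50 and 51 without control 2, knockout 2 and knockout 3. Cyclic loess called 249 higher and 39 lower. With the replicate number as a block the count was 122 (108 higher, 14 lower), MTA2 among them. Deviations of same-numbered clones correlated at 0.066, 0.015 and 0.019, so the numbers are not shown to pair them. Since MTA2 was chosen by its difference on these arrays, nothing is read from its calls under other settings. MTA2 differed by 0.16 and was not called with the default fit, and by 1.01 to 1.13 when 1 clone was left out, without a call only in the absence of control 3. The count of members called was accordingly 0 with the default fit, 0 to 1 when 1 clone was left out and 1 elsewhere. The count of related genes called was 1 after scaling to a common median, 1 with the stricter detection filter, 0 to 2 when 1 clone was left out and 0 elsewhere. The MBTD1 difference lay between -0.25 and 0.02 when 1 clone was left out and turned positive, at 0.02, without knockout 3. The cause of these changes was not tested. Signals near background limit MTA1, MTA2 and MBD3 and leave CHD3 and MBD2 unmeasured. The log2 differences of MTA1 and MTA2 shrink with a larger offset.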
